A study of Saccharomyces cerevisiae with 18 samples.

Results

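The comparison set S96 yeast cells carrying the I775E form of the transcription factor Yrr1 (Yrr1-IE) against cells carrying the unchanged S96 form (Yrr1-S), both grown in glycerol, by RNA-Seq. It used every library labelled with either allele and with glycerol, which is 4 of the 18 libraries of the series, numbered S15 and S16 for Yrr1-S and S17 and S18 for Yrr1-IE. All 18 libraries came from the haploid S96 strain (MATa, lys5, the S288c background), in which the chromosomal YRR1 coding region had been replaced by a hygromycin-resistance gene. The allele was carried on a plasmid kept with G418, under its own promoter and terminator. The groups used were YRR1_S96 and YRR1_S96-I775E in glycerol, the same pair in YPD (S3 and S4, S5 and S6), and YRR1_YJM789 (Yrr1-Y) in glycerol (S13 and S14) and in YPD (S1 and S2). Each of the 9 conditions of the series had 2 libraries, so p-values measured the spread between these libraries, which may be partly technical. YPD is a rich medium with glucose, and glycerol is a carbon source that has to be respired.

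Yrr1 is a zinc cluster activator of multidrug-resistance genes such as SNQ2. Growth on glycerol depends on another regulator, the protein kinase Snf1. In budding yeast the removal of glucose activates Snf1, which releases Mig1 repression and switches on the activators Cat8, Sip4 and Adr1. These turn on gluconeogenesis, the glyoxylate cycle, the use of ethanol, acetate and lactate, and beta-oxidation, while respiration takes over from fermentation.

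The I775E change lies near the carboxy-terminal end of Yrr1. The reference window is shown because it holds the only codon that separates the 2 alleles by label, and it covers chrXV:639656-639682 (R64, minus strand) inside the coding region of YRR1 (YOR162C, chrXV:639560-641992). It is written 5′ to 3′ with codon 775, an isoleucine codon, in capitals, and it comes from the reference genome and not from these libraries.
YRR1 codon 775: agtcaatcagagATCattcagatgctg

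Of 5766 loci tested, 2785 (48.3%) differed between Yrr1-IE and Yrr1-S in glycerol at an adjusted p under 0.05 (edgeR's quasi-likelihood test, two-sided). Of these, 1191 (20.7%) were higher and 1594 (27.6%) lower with Yrr1-IE, and the median log2 fold change over all loci was -0.11. All fold changes below are log2 values of Yrr1-IE over Yrr1-S. The standard error (SE), where given, is the absolute fold change divided by the square root of the test's F value. It is an approximation and can be too small where a group has few counts. With limma on log2(FPKM + 1), which changes the scaling, the test and the pseudocount together, 68.6% of the called loci were lower, against 57.2% in the edgeR fit, and the median of all loci moved by a further -0.14. The same pair of alleles in YPD gave 674 called loci (11.7%), 420 higher (7.28%) and 254 lower (4.41%). The YPD counts depended on single libraries, with 375 called without S5 (266 higher and 109 lower), 411 called without S4 and 155 lower without S6.

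One of the losses was at a gene that neither the labels nor the study's methods mention as altered, and it is singled out because its counts were near 0 in every Yrr1-IE library. SNF1 (YDR477W, chrIV:1412373-1414274, plus strand), which encodes the catalytic subunit of the Snf1 kinase, had 225 counts in S15 and 232 in S16, against 1 in S17 and 0 in S18. The ratio was 348-fold, with a 95% counting interval of 62.2 to 13786. Across the series SNF1 had 0 to 2 counts in each of the 6 Yrr1-IE libraries, in all 3 media, and 179 to 297 in each of the 12 others. The groups therefore did not overlap in any medium.

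**Figure D1:**
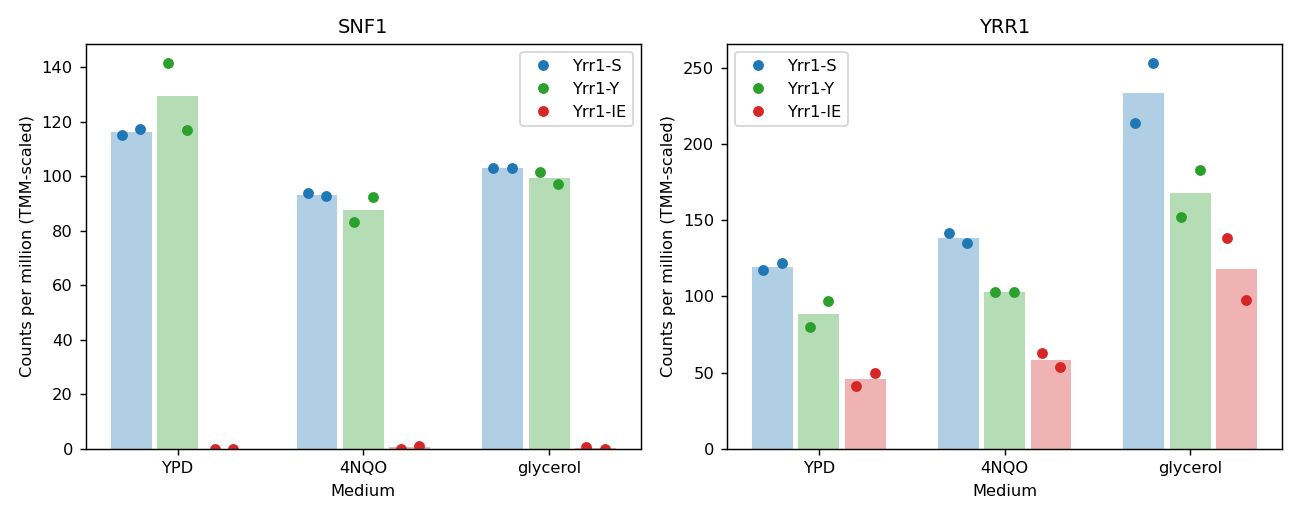
Counts scaled by library size (CPM, TMM-scaled) of SNF1 and YRR1 in each of the 18 libraries, by medium and allele. Points are libraries and bars the mean of 2. SNF1 was near 0 in all 6 Yrr1-IE libraries, and YRR1 in glycerol was 118 ± 28.5 CPM with Yrr1-IE and 233.5 ± 27.5 CPM with Yrr1-S (SD, n = 2).

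The loci beside SNF1 had reads in all 4 libraries. YDR476C, an uncharacterised gene on its left, had 331 and 432 counts with Yrr1-S and 203 and 321 with Yrr1-IE (log2 fold change -0.16, SE 0.18, adjusted p = 0.47). SNM1 on its right, a subunit of RNase MRP, had 18 and 13 counts against 25 and 20 (0.95, SE 0.45, adjusted p = 0.084). PEX29, the next gene, involved in peroxisome size, was higher (1.09, SE 0.16, adjusted p = 2.11e-06). Since every Yrr1-IE library lacked SNF1 reads, the allele of YRR1 and the absence of SNF1 transcript cannot be told apart in anything that follows.

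YRR1 itself was also lower. It had 468 and 570 counts with Yrr1-S and 199 and 190 with Yrr1-IE, which was 233.5 ± 27.5 against 118 ± 28.5 CPM (SD, n = 2) and a log2 fold change of -0.998 (SE 0.16, adjusted p = 9.78e-06). The lower level was present in YPD too (-1.38, SE 0.18), and the difference between the media did not pass the test (adjusted p = 0.24).

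The remaining members of the Snf1 complex differed by far less than SNF1. The gamma subunit SNF4 (0.82, SE 0.18) and the beta subunit SIP1 (0.74, SE 0.17) were higher, SIP2 was lower (-0.81, SE 0.20), and GAL83 (0.37) did not pass the test. Among 15 regulators of Snf1 and glucose repressors, 4 were higher and 4 lower (26.7% each). These shares were near the 20.7% and 27.6% of all loci. REG2, a regulatory partner of the phosphatase Glc7, went from 96 and 114 counts to 4 and 11 (-3.41, SE 0.42). The hexokinase HXK2 (-1.71) and the repressor MIG1 (-1.54) were lower, and the glucose-sensing factor STD1 (1.45) was higher at under 30 counts a library. The repressor subunit CYC8 was lower (-1.03). The repressor MIG2 (0.89), the phosphatase subunit REG1 (0.48) and the Snf1-activating kinase TOS3 (1.21) were higher, but REG1 was not called without S17 (0.37), nor TOS3 without S16 (0.89).

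The activators of derepressed genes differed by at most 1.80 in either direction. Of 12 tested, 4 were lower (33.3%, against 27.6% of all loci) and 3 higher (25%, against 20.7%), with a median of -0.30. CAT8, a zinc cluster activator of gluconeogenic genes, had 262 and 209 counts with Yrr1-S and 89 and 86 with Yrr1-IE (-1.02, SE 0.20). SIP4 (-1.21, SE 0.20) and HAP4 (-1.09, SE 0.18), the activating subunit of the Hap complex of respiratory genes, were lower by a like amount. ADR1, the activator of ADH2 and peroxisomal genes, was at -0.43 (adjusted p = 0.024) and was no longer called without S15 (-0.40), without S16 (-0.38) or without S18 (-0.08). The transcription factor ERT1 was higher (1.80, SE 0.21).

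Genes of gluconeogenesis and the glyoxylate cycle were much lower with Yrr1-IE. Of 15 tested, 10 were lower and 2 higher, with a median of -3.00 against -0.11 over all loci. FBP1 (fructose-1,6-bisphosphatase, YLR377C) had 3582 and 4399 counts with Yrr1-S and 61 and 62 with Yrr1-IE, or 1795 ± 222 against 37.1 ± 7.37 CPM (log2 fold change -5.61, SE 0.17, adjusted p = 5.76e-21). PCK1, which makes phosphoenolpyruvate from oxaloacetate, had 3385 and 3502 against 132 and 144 counts (-4.24, SE 0.15). In both genes the lowest Yrr1-S library was far above the highest Yrr1-IE library.

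The glyoxylate enzymes followed the same order. MLS1, malate synthase, had 2187 and 2628 counts against 24 and 28 (-6.13, SE 0.24). ICL1, isocitrate lyase, had 2597 and 2630 against 132 and 155 (-3.79, SE 0.20). The mitochondrial succinate-fumarate carrier SFC1 went from 815 and 841 counts to 9 and 5 (-6.47, SE 0.27), which left it at the edge of detection with Yrr1-IE. IDP2, cytosolic isocitrate dehydrogenase, was at -5.08, the acetyl-CoA synthetase ACS1 at -4.82, the 2-methylisocitrate lyase ICL2 at -3.00, the malate dehydrogenase MDH2 at -2.65 and the transaminase AGX1 at -1.46, all called. The exceptions were the pyruvate carboxylase PYC2 (1.15) and GID8 (0.86), a subunit of the ligase that degrades gluconeogenic enzymes, which were higher. CIT2, PYC1 and VID24 were at -0.13, 0.00 and -0.17 without passing the test.

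Ethanol, acetate and lactate use was lower as well, with 10 of 12 genes lower, 2 higher and a median of -2.40. ADH2, the alcohol dehydrogenase that oxidises ethanol, had 51849 and 60335 counts with Yrr1-S and 115 and 108 with Yrr1-IE (-8.56, SE 0.29, adjusted p = 6.21e-20). The acetate transporter ADY2 had 8718 and 10257 against 29 and 24 counts (-8.08, SE 0.22). The lactate and pyruvate permease JEN1 had 16548 and 18877 against 546 and 668 (-4.46, SE 0.17). For all 3 both Yrr1-S libraries lay far above both Yrr1-IE libraries.

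The aldehyde dehydrogenases were divided. The mitochondrial ALD4 (-3.10) and the cytosolic ALD6 (-3.06) were lower, whereas ALD3 (1.48) was higher and ALD2 (0.59) was higher but lost its call without S15 (0.41) and without S17 (0.47). CYB2 (-1.62) and DLD1 (-0.88), which oxidise lactate, ACH1 (-1.62), which transfers CoA to acetate, and the ammonium and acetate exporters ATO3 (-2.84) and ATO2 (-1.96) were lower.

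**Figure D2:**
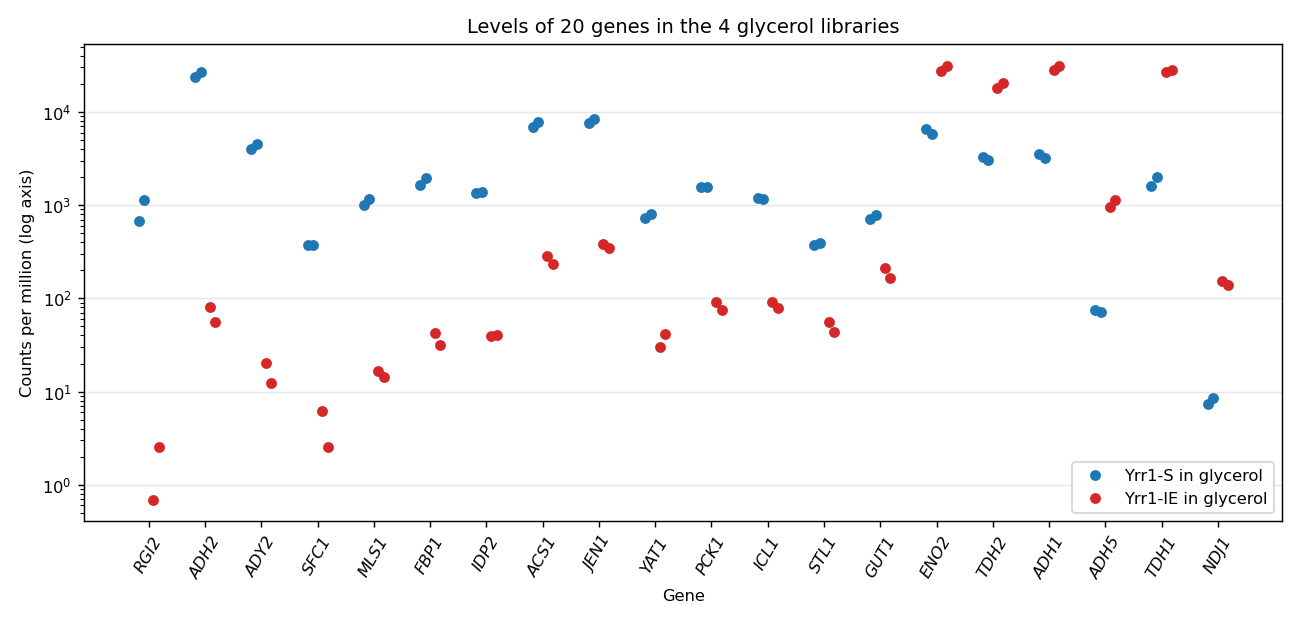
TMM-scaled CPM (log axis) of 20 genes in the 4 glycerol libraries, 1 point a library. From RGI2 to GUT1 both Yrr1-IE libraries lay below both Yrr1-S libraries, with log2 fold changes from -2.01 (GUT1) to -8.96 (RGI2), and from ENO2 to NDJ1 both lay above.

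The pair ADH2 and ADH1 changed places. ADH1, which makes ethanol during fermentation, had 7731 and 7277 counts with Yrr1-S and 40871 and 60902 with Yrr1-IE (3.14, SE 0.13, adjusted p = 2.12e-18). On the length-corrected FPKM scale ADH2 was at 24462 and 26831 and ADH1 at 3647 and 3236 in S15 and S16. In S17 and S18 ADH2 was at 74.4 and 50.1 and ADH1 at 26450 and 28274. The coding regions are close copies, so reads could be shared between them.

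Genes of glycerol uptake and of its oxidation through glycerol-3-phosphate were lower, while those of the dihydroxyacetone route were higher. Of 10 genes of glycerol use and synthesis, 4 were lower and 6 higher. STL1, the glycerol and proton symporter, had 814 and 895 counts against 81 and 85 (-2.96, SE 0.18). GUT1, glycerol kinase, had 1563 and 1781 against 305 and 319 (-2.01, SE 0.16), and GUT2, the mitochondrial glycerol-3-phosphate dehydrogenase, had 2075 and 2253 against 399 and 375 (-2.06, SE 0.18). These 3 steps take glycerol in, phosphorylate it and oxidise it.

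On the synthesis side GPD2, the glycerol-3-phosphate dehydrogenase that serves redox balance, was higher, with 820 and 756 counts against 2144 and 2908 (2.07, SE 0.12). The glycerol-3-phosphatase RHR2 (0.81) was higher and its paralogue HOR2 (-1.35) lower. The other route of glycerol breakdown runs through dihydroxyacetone. Its kinase DAK2 had 7 and 16 counts against 107 and 164 (3.93, SE 0.41), and the kinase DAK1 (0.63) and the glycerol dehydrogenase GCY1 (0.77) were higher too. GPD1 (0.45) was not called without S15 (0.35).

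Peroxisomal beta-oxidation and the carnitine shuttle, which move acetyl units from the peroxisome and cytosol to mitochondria, had 19 of 21 genes lower, 1 higher and a median of -1.97. YAT1, a carnitine acetyltransferase, had 1586 and 1817 counts with Yrr1-S and 43 and 80 with Yrr1-IE (-4.41, SE 0.17). POX1, acyl-CoA oxidase, had 945 and 1045 against 84 and 66 (-3.31, SE 0.21). The fatty acyl-CoA transporter subunit PXA1 (-3.14), the thiolase POT1 (-2.72), the peroxisomal catalase CTA1 (-2.05) and FOX2 (-1.97), the multifunctional enzyme of the pathway, were lower too. FAA1, a long-chain acyl-CoA synthetase, was the member that was higher (0.84), and MDH3 (-0.17) did not pass the test. CRC1 (-0.66) lost its call without S18 (-0.43) and SPS19 (-0.75) without S16 (-0.57).

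Cat8 and Sip4 bind carbon source-responsive elements, and the promoters of 2 of the lowered genes are shown because they hold matches to the core of that element, CC and CCG with 6 bases of any kind between them, searched on both strands. The windows run from 250 bases before to 50 after the start of the coding region, were read from the R64 reference, and have the matches in capitals, with overlapping matches merged. ACS1 (YAL054C, chrI:44973-45272, minus strand) has 1 match and YAT1 (YAR035W, chrI:189943-190242, plus strand) has 4.
ACS1: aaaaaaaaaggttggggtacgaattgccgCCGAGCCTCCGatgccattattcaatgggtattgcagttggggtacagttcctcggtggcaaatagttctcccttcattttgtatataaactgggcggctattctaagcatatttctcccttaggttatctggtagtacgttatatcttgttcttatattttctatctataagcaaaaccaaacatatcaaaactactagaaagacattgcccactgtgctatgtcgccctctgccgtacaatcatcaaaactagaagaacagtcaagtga
YAT1: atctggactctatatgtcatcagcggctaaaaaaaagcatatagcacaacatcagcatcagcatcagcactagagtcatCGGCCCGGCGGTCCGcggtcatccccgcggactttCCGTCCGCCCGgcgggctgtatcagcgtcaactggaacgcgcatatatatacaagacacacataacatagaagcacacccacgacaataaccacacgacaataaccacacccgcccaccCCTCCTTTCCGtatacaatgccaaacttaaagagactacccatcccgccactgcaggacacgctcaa
The motif was in 4 of 15 windows of the gluconeogenic list (26.7%), in 6 of 21 of the peroxisomal list (28.6%), in 0 of 12 of the ethanol, acetate and lactate list and in 10.2% of all 6007 windows. It was also in 7 of 26 windows of the nitrogen list (26.9%), where more genes were higher than lower, and in 4 of 25 of the glycolysis list (16%). In the gluconeogenic list the windows with the motif were those of ACS1 and AGX1, both lower, and of PYC2 and GID8, both higher. The windows of FBP1, PCK1, ICL1, MLS1, MDH2, IDP2, SFC1 and ICL2, all lower, held none. Each shorter motif below was also searched on both strands. CCAAT, the core bound by the Hap complex, was in 16 of 21 peroxisomal windows (76.2%), 7 of 15 gluconeogenic ones (46.7%) and 43.3% of all. GTGGGG and GCGGGG, the forms of the Mig1 core, were in 3 (20%) and 1 (6.67%) of the 15 gluconeogenic windows, against 4.38% and 2.58% of all, and AGGGG, the core of stress-response elements, in 7 (46.7%) against 21.6%. CACGTG, the core bound by Cbf1 and by Pho4, was in 0 of 15 gluconeogenic windows and in 2.91% of all. These are counts of letters in the window and show no binding.

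Respiratory genes encoded in the nucleus were lower by smaller amounts. In the tricarboxylic acid cycle 15 of 18 were lower and none higher (median -1.17), among them the citrate synthases CIT3 (-3.43, SE 0.19) and CIT1 (-1.40, SE 0.13) and fumarase FUM1, with 5364 and 5892 counts against 827 and 1064 (-2.18, SE 0.12). Of the ATP synthase genes 16 of 17 were lower and none higher (median -0.81). In the respiratory chain 16 of 23 were lower (median -0.67), such as the NADH dehydrogenase NDE1 (-1.61) and the bc1 subunit QCR2 (-1.13).

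The 2 respiratory chain genes that were higher were the isoforms known for low oxygen. CYC7, iso-2-cytochrome c, had 22 and 24 counts with Yrr1-S and 146 and 245 with Yrr1-IE (3.45, SE 0.33), and its counterpart CYC1 was lower, with 445 and 354 against 45 and 112 (-1.98, SE 0.20). COX5B had 50 and 85 against 271 and 471 counts (2.83, SE 0.23), and COX5A was at -0.76 (SE 0.13). On the FPKM scale COX5A stayed above COX5B in every library, whereas CYC7 (289 and 348 FPKM) was above CYC1 (92.4 and 165) with Yrr1-IE and far below it with Yrr1-S (31.8 and 32.7 against 666 and 500).

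Glycolysis and fermentation moved the other way. Of 25 genes 21 were higher, 1 lower and 3 not called, with a median of 1.19. TDH1, an isozyme of glyceraldehyde-3-phosphate dehydrogenase, had 3537 and 4540 counts with Yrr1-S and 38723 and 54360 with Yrr1-IE (3.92, SE 0.17, adjusted p = 7.63e-18). TDH2 (2.58) and TDH3 (0.83) were higher by less. The 3 TDH genes are near-copies, as are ENO1 and ENO2, so reads could be split among them.

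Further down the pathway ENO2 (2.25, SE 0.13), ENO1 (2.19, SE 0.12), PGK1 (2.02, SE 0.12) and the pyruvate kinase CDC19 (1.32, SE 0.11) were higher, as were both phosphofructokinase subunits, PFK1 (1.49) and PFK2 (1.32). ADH5 had 166 and 160 counts against 1383 and 2182 (3.83, SE 0.17). The pyruvate decarboxylase isozyme PDC6 was the member that was lower (-1.51), while PDC1 was at 0.72 and PDC5 (0.42) did not pass the test.

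**Figure D3:**
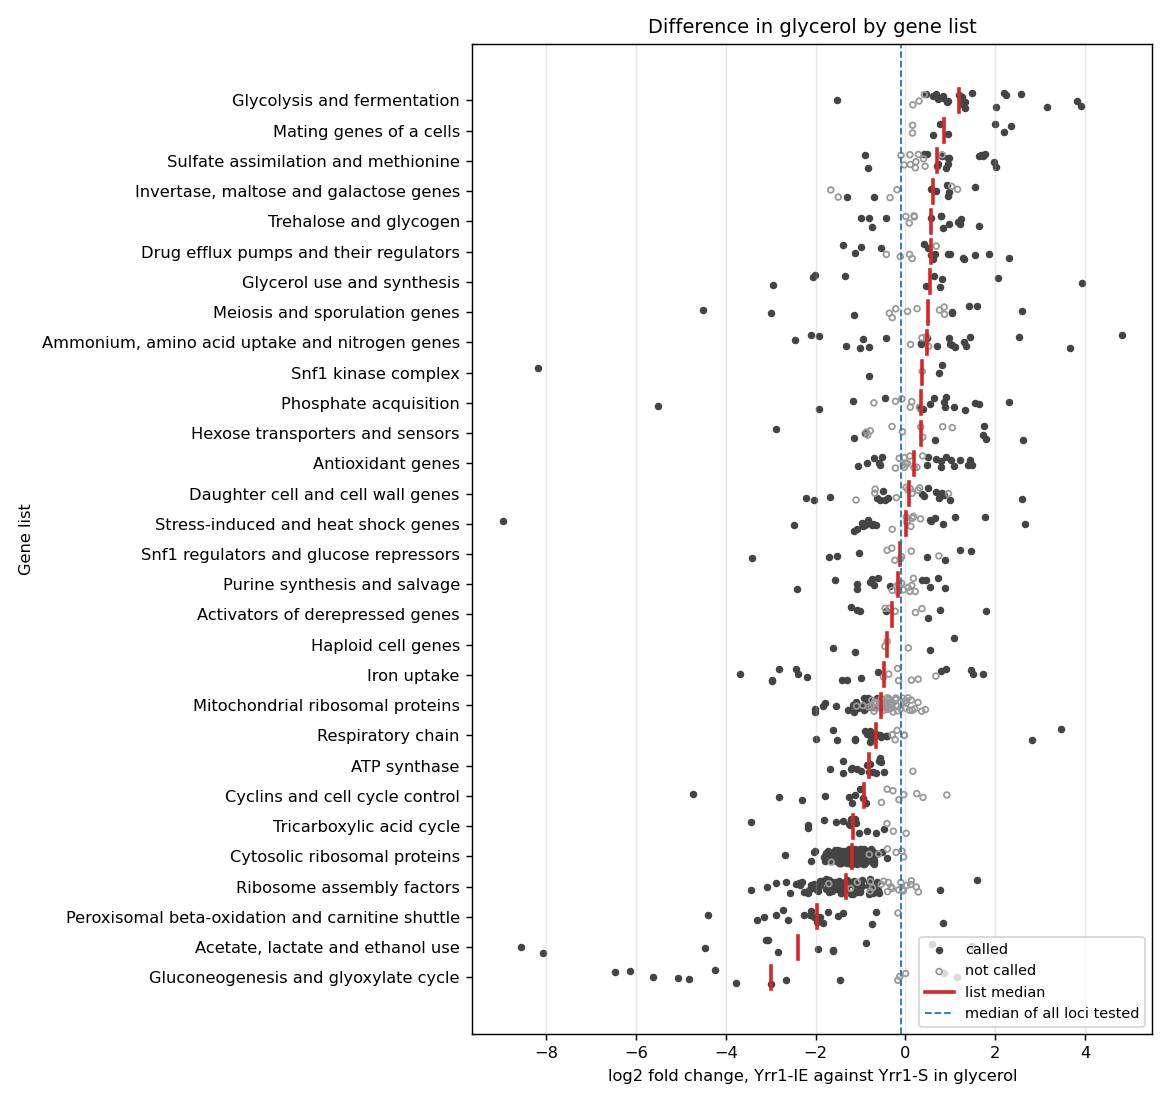
Log2 fold change in glycerol (Yrr1-IE over Yrr1-S) of each tested member of 30 gene lists, ordered by the list median, with filled points for called members, open points for others, red bars for list medians and a dashed line for the median of all loci tested (-0.11). Of these 30, gluconeogenesis has the lowest median (-3.00) and glycolysis the highest (1.19), and the mitochondrial genome (median 5.70, resting on S17) and the genes of alpha cells (0.54, of 3 tested), both with few counts, are not drawn.

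Hexose transporters were mixed, with 5 of 17 higher (29.4%, against 20.7% of all loci) and 3 lower (17.6%, against 27.6%). HXT1, a low-affinity transporter, had 21 and 30 counts against 122 and 114 (2.62, SE 0.34), and HXT3 (1.75) and HXT7 (1.80) were higher. HXT2, a high-affinity transporter, had 1537 and 729 against 119 and 112 (-2.89, SE 0.28), and HXT5, expressed in slow growth, was at -1.14. HXT6 and HXT7 are near-identical and could share reads. Of 14 invertase, maltose and galactose genes 6 were higher (42.9%, against 20.7% of all loci) and 2 lower (14.3%, against 27.6%). These counts moved when S15 or S18 was left out. The galactokinase GAL1 was at 1.56 and the maltase MAL32 at -1.66. SUC2, invertase, at -0.70, was not called without S16 (-0.21) or S18 (-0.41). Storage carbohydrate genes had 9 of 17 higher (52.9%) and 4 lower (23.5%, near the share of all loci). Their counts moved when S18 was left out. The glycogen phosphorylase GPH1 (1.64) and the trehalose synthase subunit TSL1 (1.25) led the higher genes.

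The ribosome was the largest lowered group by number. Of 134 cytosolic ribosomal protein genes tested, out of 137 listed, 127 were lower and none higher (median -1.18, range -2.68 to -0.04). RPL8A had 874 and 851 counts against 77 and 130 (-2.68, SE 0.16), and RPS9B had 1334 and 1258 against 200 and 288 (-2.02, SE 0.13). Many of these genes come as near-identical pairs, so single members are uncertain. Of 103 ribosome assembly factors 80 were lower and 2 higher (median -1.32), with UTP13, a subunit of the small-subunit processome, at 114 and 89 against 6 and 8 counts (-3.45, SE 0.34) and ESF1 as the highest (1.59). Mitochondrial ribosomal proteins had 25 of 74 lower (33.8%, against 27.6% of all loci) and none higher (median -0.54), a share near that background. The number fell to 14 without S15, 12 without S16 and 14 without S17.

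Of 18 cyclins and cell cycle regulators 10 were lower and none higher (median -0.91), with 8 lower and 1 higher without S15. PCL1, a G1 cyclin of the Pho85 kinase, had 172 and 152 counts with Yrr1-S and 9 and 0 with Yrr1-IE (-4.73, SE 0.43). The mitotic cyclin CLB2 had 121 and 83 against 9 and 13 (-2.81, SE 0.33), and the G1 cyclins CLN1 (-1.80), CLN2 (-1.26) and CLN3 (-1.13) were lower. In bulk RNA, fewer cells in a phase and less transcript per cell cannot be told apart. Daughter cell and cell wall genes had 9 of 28 higher and 8 lower (32.1% and 28.6%, against 20.7% and 27.6% of all loci). The counts moved when S17 or S18 was left out. The cell wall proteins CIS3 (-2.21) and CWP2 (-2.05) were at the low end and TIR2 (2.60) at the high end.

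Genes of the drug response, the group that Yrr1 is known to regulate, went both ways. Of 21 efflux pumps and their regulators 12 were higher (57.1%, against 20.7% of all loci) and 4 lower (19%, against 27.6%). Their median was 0.56. The counts were 9 higher and 3 lower without S17, 11 and 2 without S18, and 9 and 5 with limma on log2(FPKM + 1). SNQ2, the ABC transporter of 4NQO, had 512 and 494 counts against 567 and 540 (0.56, SE 0.14), and without S17 it was at 0.30 and not called. The transporter ATR1 had 99 and 100 counts against 258 and 291 (1.87, SE 0.17), RTA1 had 26 and 28 against 69 and 140 (2.31, SE 0.33) and FLR1 was at 1.29. PDR10 was lower, with 605 and 666 against 164 and 206 (-1.38, SE 0.16). In YPD the same pair of alleles gave 0 of these 21 genes higher and 1 lower, with a median of 0.10.

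Nutrient uptake genes went both ways. Of 22 phosphate genes 12 were higher (54.5%, against 20.7% of all loci) and 4 lower (18.2%, against 27.6%). PHO89, a sodium and phosphate cotransporter, had 2902 and 2770 counts against 32 and 64 (-5.50, SE 0.23), while the acid phosphatase PHO5 had 245 and 172 against 533 and 1072 (2.30, SE 0.18). Of 26 nitrogen genes 14 were higher (53.8%) and 8 lower (30.8%, near the share of all loci). The ammonium permease MEP2 went from 153 and 233 counts to 1757 and 1906 (3.66, SE 0.17). The proline permease PUT4 went from 2286 and 2667 to 333 and 337 (-2.47, SE 0.17). Of 23 iron genes 11 were lower (47.8%) and 5 higher (21.7%, near the share of all loci). The siderophore transporter SIT1 was at 1275 and 2029 against 91 and 102 counts (-3.69, SE 0.21) and the ferroxidase FET3 at -2.39 (SE 0.18).

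Several of the largest differences lay outside these pathways. RGI2, a small protein of respiratory growth, had 1484 and 2564 counts against 1 and 5 (-8.96, SE 0.35). Its count ratio was 514-fold, with a 95% counting interval of 236 to 1402, which is wider than this SE implies. YLR307C-A, uncharacterised, had 381 and 401 against 0 and 2 (298-fold, 95% counting interval 82.2 to 2465). FDH2 and YPL276W, which overlap by 17 bases and are parts of one formate dehydrogenase gene, had 231 and 263 against 2 and 2, and 180 and 176 against 2 and 3. CSM4, a meiotic protein, had 80 and 76 against 3 and 2. With SNF1 these made 5 loci with 3 counts or fewer in both Yrr1-IE libraries and 50 or more in both Yrr1-S libraries, and no locus showed the reverse.

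On the higher side, YJL133C-A, which encodes a small mitochondrial protein, had 177 and 136 counts against 3640 and 5775 (5.28, SE 0.16). NDJ1, a meiotic telomere protein, had 16 and 19 against 220 and 273 (4.21, SE 0.27), and TPC1, the mitochondrial thiamine pyrophosphate carrier, had 75 and 73 against 626 and 1013 (3.84, SE 0.20). The Ty element gene YDR261W-B (4.13) is a member of a repeated family and shares 1317 bases with YDR261W-A, which leaves its own count uncertain.

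COX1 and its intron genes AI1 and AI2, encoded in mitochondrial DNA, were also among the 10 highest, and their calls rested on library S17. COX1 had 4 and 0 counts with Yrr1-S and 174 and 10 with Yrr1-IE (6.001, SE 1.29), and without S17 its difference was 2.44 and not called. The summed level of the 8 mitochondrial genes was 3.66 and 3.11 CPM in S15 and S16, 347 CPM in S17 and 11.3 CPM in S18. Of 6 tested 5 were called higher, and none without S17 or by DESeq2. Without S17 the comparison as a whole gave 1064 higher and 1381 lower loci.

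Mating type markers were checked against the MATa label. The 8 genes of a cells were present in all 4 libraries, with a summed level of 364 to 369 CPM with Yrr1-S and 924 to 1106 CPM with Yrr1-IE, and 6 were higher, including the alpha-factor receptor STE2 (2.18, SE 0.15) and the a-factor gene MFA2 (2.35, SE 0.16). The 4 genes of alpha cells summed to 97.4 to 103 CPM and to 136 to 175 CPM, and the 2 alpha-factor genes had few counts (MF(ALPHA)2 at most 19 in S15 to S18). Of 3 tested 2 were called higher, none without S15, 1 without S16 and none without S17. Haploid-specific genes summed to 348 to 393 and 449 to 451 CPM, with 2 of 7 higher and 2 lower (1 and 2 without S16, 1 and 1 without S17). Meiosis genes summed to 285 to 305 and 441 to 454 CPM, with 5 of 16 higher and 3 lower. The shares higher and lower were 28.6% each for haploid-specific genes and 31.2% and 18.8% for meiosis genes. Over all loci they were 20.7% and 27.6%. Their part in the other results was not tested.

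The difference between the alleles differed between the glycerol and the YPD libraries for 1810 loci (31.4%), by a test of the glycerol difference minus the YPD difference. By the study's methods glycerol cultures were grown for longer than YPD cultures after dilution, so medium and growth time cannot be told apart. Of the 420 loci higher with Yrr1-IE in YPD, 197 were also higher in glycerol (46.9%, or 16.5% of those higher in glycerol). A further 79 (18.8%) were lower in glycerol. Of the 254 lower in YPD, 124 were lower in glycerol too (48.8%, or 7.78% of those lower there), and 48 (18.9%) were higher. Over all loci, 20.7% were higher and 27.6% lower in glycerol. In all, 127 loci were called in opposite directions in the 2 media. These overlaps rest on the YPD calls, which single libraries moved as given above. No library is in both comparisons, but glycerol and YPD libraries of an allele may go back to the same starting cultures.

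The differences in carbon genes were largely seen in glycerol. In YPD the gluconeogenic list had a median of 0.13, with 3 of 15 higher and 2 lower, and ADH2 was higher with Yrr1-IE (1.12, SE 0.37), at 14.8 ± 0.232 CPM with Yrr1-S and 31.8 ± 10.98 CPM with Yrr1-IE, so that its interaction was -9.68 (SE 0.45, adjusted p = 1.56e-15). PCK1 (1.81) and JEN1 (1.68) were likewise higher in YPD. TDH1 was a counterexample, since its excess with Yrr1-IE was 4.32 in YPD and 3.92 in glycerol (interaction -0.41, adjusted p = 0.18). Of the 25 glycolysis and fermentation genes, 8 were higher in YPD (32%, against 7.28% of all loci) and 2 lower (8%, against 4.41%). Their median in YPD was 0.25. By the test of glycerol minus YPD, 17 of these genes were higher, 1 lower and 7 not called.

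Stress genes had another pattern. In YPD 15 of 27 were higher with Yrr1-IE (55.6%, against 7.28% of all loci) and none lower (median 1.51). In glycerol 7 were higher (25.9%, against 20.7%) and 12 lower (44.4%, against 27.6%). The glycerol median was 0.02, and -0.28 without S17. HSP26, a small heat shock protein, was at 9.73 ± 3.15 CPM with Yrr1-S and 356 ± 29.2 with Yrr1-IE in YPD, and at 3083 ± 333 and 1944 ± 349 in glycerol (SD, n = 2), where its difference (-0.66) was not called without S16 (-0.47) or S17 (-0.49). The Hsp70 gene SSA3 was at 2.25 in YPD and -2.48 in glycerol. HSP30 (2.67) and the cytosolic catalase CTT1 (1.76) were higher in glycerol.

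Of the sulfate assimilation and methionine genes 15 of 27 were higher in glycerol (55.6%, against 20.7% of all loci). Another 2 were lower (7.41%, against 27.6%), and the median was 0.69. These counts moved when S15, S16 or S18 was left out. In YPD 20 were higher and 1 lower (median 1.70). MET17, which incorporates sulfide, was at 4.00 in YPD and 1.72 in glycerol (interaction -2.28, SE 0.20), and the ATP sulfurylase MET3 was at 3.73 and -0.10. SAM1 and SAM2, S-adenosylmethionine synthetases, were higher in glycerol (1.68 and 2.01). Antioxidant genes had 12 of 29 higher (41.4%) and 6 lower (20.7%) in glycerol, against 20.7% and 27.6% of all loci. Their counts moved when S16 or S17 was left out. The peroxiredoxin AHP1 (1.47) and GSH1 (1.45), the first enzyme of glutathione synthesis, were in front.

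Purine genes were lower in YPD, with 15 of 25 lower and 1 higher (median -0.74). In glycerol 9 were lower (36%, against 27.6% of all loci) and 5 higher (20%, against 20.7%), with a median of -0.16. These glycerol counts moved when S15 or S17 was left out. ADE17, of the last steps of IMP synthesis, had 6796 and 11408 counts with Yrr1-S and 436 and 405 with Yrr1-IE in YPD (-4.48, SE 0.18). In glycerol it had 336 and 362 against 237 and 226 (-0.18, adjusted p = 0.43). The adenine deaminase AAH1 was lower in glycerol (-2.42, SE 0.32) and at 0.04 in YPD (adjusted p = 0.93).

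**Figure D4:**
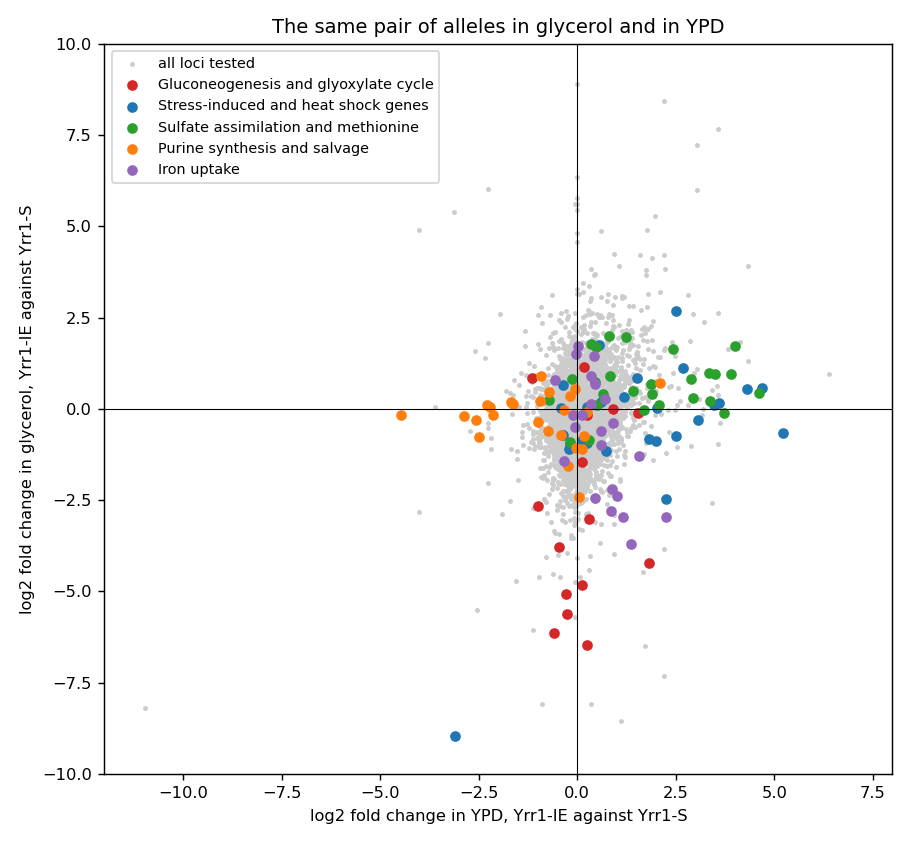
Log2 fold change of Yrr1-IE over Yrr1-S in YPD (horizontal) and in glycerol (vertical), 1 point a locus, with 5 gene lists in colour and all loci tested in grey. Gluconeogenic genes spread down the vertical axis (FBP1 at -0.25 and -5.61), ADE17 lies along the horizontal one (-4.48 and -0.18), and the stress list spreads along both, down to -8.96 (RGI2) in glycerol and up to 5.22 (HSP26) in YPD.

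The response to glycerol in cells with SNF1 reads was taken from Yrr1-Y, none of whose libraries is among those compared above. From YPD to glycerol with Yrr1-Y, 1645 loci rose and 1559 fell (55.6% called in all). Of those that rose, 413 (25.1%) were lower and 454 (27.6%) higher with Yrr1-IE in glycerol, against 27.6% lower and 20.7% higher over all loci. Of those that fell, 690 (44.3%) were lower and 277 (17.8%) higher.

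Above a response of 1 the share that was lower grew with the size of the induction. Among 642 loci induced by 1 to 2 on the log2 scale with Yrr1-Y, 18.1% were lower with Yrr1-IE in glycerol, against 27.6% of all loci. Of the same 642 loci 29.1% were higher, and their median difference was 0.17. The share lower was 32.1% of 399 loci at 2 to 4, 49% of 98 at 4 to 6 and 58.9% of 56 at 6 or more. In the last group the median difference was -0.92. The share higher in these groups was 26.1%, 20.4% and 14.3%. Among 654 loci reduced by 1 to 2 in glycerol with Yrr1-Y, 53.4% were lower with Yrr1-IE, and the median was -0.66. The 12 loci reduced by 4 or more were too few to read.

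**Figure D5:**
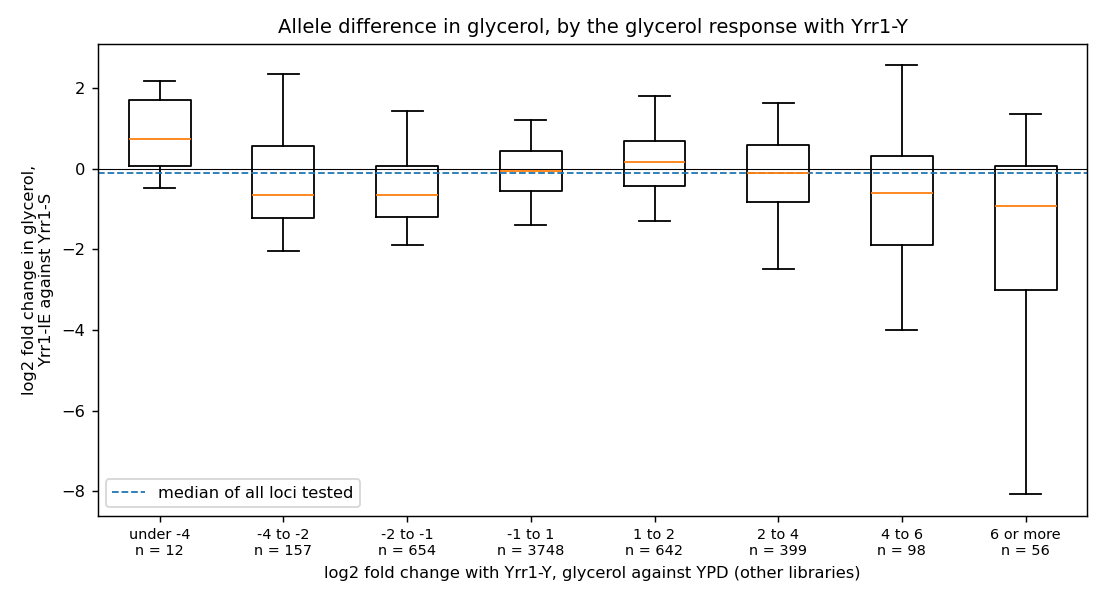
Log2 fold change of Yrr1-IE over Yrr1-S in glycerol for loci grouped by their glycerol response with Yrr1-Y. Boxes span the quartiles with the median, whiskers the 5th to 95th percentile, and n is the number of loci. The median is -0.92 in the most induced group and -0.66 among loci reduced by 1 to 2.

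Against Yrr1-Y in glycerol, a comparison that shares S17 and S18 with it, Yrr1-IE gave 985 higher and 1503 lower loci (43.1% called). Side by side, the differences from Yrr1-S and from Yrr1-Y were -8.56 and -8.09 for ADH2, -5.61 and -5.73 for FBP1, 3.14 and 2.82 for ADH1 and -0.998 and -0.52 for YRR1. SNQ2 was at 0.56 against Yrr1-S and -0.18 against Yrr1-Y. HXT7 was at 1.80 and 0.28.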

How the data were processed

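RNA was sequenced from 18 unstranded TruSeq libraries on a MiSeq. Per the labels and the paper's methods, the authors called bases with CASAVA 1.7, aligned reads with TopHat2 2.0.12 to the S288c genome (R64) and counted them per gene with Rsubread. The deposited counts are whole numbers without normalization for 6713 loci. The deposited FPKM values are scaled to exon length and library total. The authors' DESeq2 1.8.1 table holds their own comparisons (log2 fold changes and p-values) and was not used. Conditions came from sample titles, since the medium label of the glycerol samples names all 3 media.

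Total counts were 2023975 and 2147374 for Yrr1-S and 1475372 and 2056672 for Yrr1-IE in glycerol. Replicate libraries had Pearson's r of 0.980 (Yrr1-S) and 0.963 (Yrr1-IE) across loci, on log2(CPM + 1), and differed by more than counting noise. The totals of S15, S16 and S18 exceeded the highest number of read pairs that the paper gives for a sample. Both mates of a pair were therefore probably counted, and the counting intervals are then too narrow. The intervals cover counting error only.

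Counts were fitted in R 4.3.3 with edgeR 4.0.16 (filterByExpr, TMM, quasi-likelihood, 1 coefficient per condition over 18 libraries, common dispersion 0.0122), with Benjamini-Hochberg adjustment over 5766 loci and calls at an adjusted p under 0.05. In simulated data (5723 genes), the share called was 32.8% at a 1.5-fold change, 68.2% at 2-fold and 89.4% at 4-fold. Far fewer genes were changed there than were called in the real comparison, so these shares do not give its power. Alternatives used DESeq2 1.42.0, limma 3.58.1 (voom, and log2 FPKM with a pseudocount of 1 or 0.1), other size factors and filters, fewer libraries and each library left out. Python 3.11.15 with pandas 2.3.3, numpy 2.4.6, scipy 1.17.1 and matplotlib 3.10.9 made the tables and plots. Coordinates and sequences came from R64, with the same start or end as the files for 6022 loci.

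Names were drawn from a set given by a rule. It held SNF1, YRR1 and SNF1's neighbours, and the 10 highest and 10 lowest called loci with a mean of 20 CPM or more and no overlap between the groups. It also held loci with 3 counts or fewer in one group and 50 or more in the other, the members of the first 7 gene lists, and up to 4 of each other list, called members first. Not every member of the first 7 lists is named in the text, among them activators and peroxisomal genes. Further genes were named after their values were seen, for contrast. The comparison and the 32 lists were chosen with earlier results of these data known.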

Additional observations from a re-analysis of the deposited data

Results flagged for a closer look

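Each value here is the log2 fold change with Yrr1-IE over Yrr1-S in glycerol minus the one in YPD. The genes were called in opposite directions in the 2 media. All 127 loci so called also passed the test of the difference itself, which therefore added nothing to the choice. Only members of the 32 gene lists and the other genes chosen by rule were looked at, so not all of the 127 are given. The test of the difference called 1810 loci in all. The opposite directions rest on calls that single libraries moved, in YPD above all. In glycerol the calls of GPD1, SPS19 and HSP26 did not hold when single libraries were left out, as given above.

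Among carbon genes it was -9.68 for ADH2, -6.15 for JEN1, -6.05 for PCK1, -3.47 for SIP4, -4.07 for PXA1, -3.38 for YAT2, -2.03 for SPS19, -2.06 for HOR2 and -1.32 for STF1, lower in glycerol and higher in YPD. It was 4.05 for HXT7, 2.003 for GID8, 1.67 for PFK27, 1.51 for GPD1 and 1.28 for PDC1, higher in glycerol and lower in YPD.

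Among chaperones and antioxidant genes it was -5.88 for HSP26, -4.73 for SSA3, -3.25 for HSP82, -2.89 for HSP104, -2.66 for SSA1, -3.58 for GRX8 and -1.43 for PRX1. Iron genes gave -5.22 for TIS11, an RNA-binding regulator of iron-dependent transcripts, -5.05 for SIT1, -3.65 for FTR1, -3.39 for FET3, -3.09 for FIT3 and -2.86 for ARN1, and 1.36 for the vacuolar iron importer CCC1.

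Nitrogen genes gave -3.00 for CAR2, -2.69 for PUT1, -1.81 for GDH2, 1.24 for GDH1 and 0.99 for GLN1. Cell wall genes gave -2.96 for CIS3, -2.49 for CWP2, -2.04 for CWP1, -1.35 for PIR3 and -0.94 for SED1. The purine genes ADE8 and ADE3 were at 1.82 and 1.17, and RPS9A, of the small ribosomal subunit, was at -2.56.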

How the results depend on the processing

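The glycerol counts were 832 to 1284 higher and 1196 to 1901 lower over the alternatives run, against 1191 and 1594. With limma on log2 FPKM the median of all loci moved by -0.14 (pseudocount 1) and -0.16 (0.1), and 68.6% and 69.2% of calls were lower. Only the 4 libraries compared gave 1235 higher and 1236 lower, and DESeq2 gave 1151 and 1397. Leaving out single libraries gave 958 to 1146 higher, 1196 to 1381 lower and 2223 to 2445 in all.

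In YPD, leaving out single libraries gave 375 to 488 called loci, 266 to 319 higher and 109 to 180 lower, against 674, 420 and 254, and FPKM gave 161 (pseudocount 1) and 159 (0.1) lower. For glycerol minus YPD, FPKM gave 459 (pseudocount 1) and 444 (0.1) higher loci against 693. The causes were not tested.

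Leaving out single libraries moved COB between 0.00 and 9.53 and ATP6 between -4.63 and 5.71 on the log2 scale, with the lower end of each, not called, without S17. Of 10710 single-gene values under an alternative, 10032 stayed on the same side of the threshold, with direction checked for called genes only. A further 511 lost the call and 165 gained one. The last 2, COB at 0.00 and ATP6 at -4.63 without S17, no longer kept the sign of a called value. The medians of the Snf1 regulator, hexose transporter, stress and cell wall lists lay near 0 and changed sign under at least 1 alternative. No paired analysis was possible because the labels give no replicate numbers shared between groups and do not say which glycerol and YPD libraries, if any, came from the same starting culture. With 2 libraries a group, and 1475372 counts in the shallowest, differences in genes with few counts were poorly resolved.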
